A study of Mus musculus with 6 samples.

Results

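The immediate early genes of the mouse uterus were examined in 3 floxed control (Nat10 f/f) and 3 Nat10-deleted (Nat10 d/d) libraries. The members were the 10 genes Fos, Fosb, Jun, Junb, Egr1, Egr2, Ier2, Ier3, Nr4a1 and Dusp1, found by gene symbol among the 20637 genes listed for each library, and all 10 were found. Each library was made from poly(A) RNA of a whole uterus of a female mouse on postnatal day 21, around weaning. All animals carried floxed or deleted Nat10, and the sources used here give no wild-type group, no Cre driver and no cell type in which the deletion occurs. Nothing in the labels says that the replicates came from separate animals, so p-values measure the spread between these libraries, which may be technical in part. Levels are taken as FPKM values, that is, fragment abundance scaled by transcript length and library depth. They may be compared between genes within a library. Comparison between libraries assumes that their RNA composition is alike, which was not tested.

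Immediate early genes are transcribed within minutes of a stimulus, without new protein synthesis, when kinases of the MAPK and cAMP pathways act on factors such as SRF, the ELK proteins and CREB that already sit at their promoters. Many of their products are transcription factors: FOS and JUN proteins pair to form AP-1, and the EGR zinc-finger proteins bind GC-rich sites. Their transcripts are short-lived, and others among them, such as Dusp1, encode inhibitors that shut the response down. In the uterus they are known for a rapid response to oestrogen, and in excised tissue for a response to handling.

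The promoters of 4 members are shown because these genes gave the clearest pattern between groups (Fos, Egr2) or the pattern shared by most members (Nr4a1, Dusp1). Each window runs from 250 bases before the RefSeq transcription start to 50 bases after it on build GRCm38.p6, and is written 5′ to 3′ on the gene's own strand. For Fos (chr12:85473640-85473939, plus strand) capitals mark the cAMP response element core TGACG, whose copies begin 129 and 66 bases before the start. For Egr2 (chr10:67537619-67537918, plus strand, 1 of 5 windows listed for this gene) capitals mark a CArG box, the site bound by SRF, which begins 72 bases before the start. For Nr4a1 (chr15:101266596-101266895, plus strand) capitals mark 4 copies of the same TGACG core on the opposite strand. For Dusp1 (chr17:26508423-26508722, minus strand) they mark a complete cAMP response element, TGACGTCA, which begins 143 bases before the start.
Fos: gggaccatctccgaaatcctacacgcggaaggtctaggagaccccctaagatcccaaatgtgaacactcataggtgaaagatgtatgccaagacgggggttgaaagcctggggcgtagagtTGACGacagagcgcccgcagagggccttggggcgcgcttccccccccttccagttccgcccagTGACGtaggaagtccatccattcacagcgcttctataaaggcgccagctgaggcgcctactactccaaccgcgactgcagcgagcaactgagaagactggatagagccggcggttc
Egr2: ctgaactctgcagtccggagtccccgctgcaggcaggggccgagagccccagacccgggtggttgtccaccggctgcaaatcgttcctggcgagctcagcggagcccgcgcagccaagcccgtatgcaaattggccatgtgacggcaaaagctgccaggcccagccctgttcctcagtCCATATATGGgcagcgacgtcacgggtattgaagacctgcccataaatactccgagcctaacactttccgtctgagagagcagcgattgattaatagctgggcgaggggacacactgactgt
Nr4a1: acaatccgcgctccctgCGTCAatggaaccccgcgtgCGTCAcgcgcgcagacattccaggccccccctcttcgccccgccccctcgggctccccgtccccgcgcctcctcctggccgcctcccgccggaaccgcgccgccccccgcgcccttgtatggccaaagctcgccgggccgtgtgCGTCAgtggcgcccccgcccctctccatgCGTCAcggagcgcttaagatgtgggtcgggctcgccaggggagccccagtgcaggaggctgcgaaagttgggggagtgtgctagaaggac
Dusp1: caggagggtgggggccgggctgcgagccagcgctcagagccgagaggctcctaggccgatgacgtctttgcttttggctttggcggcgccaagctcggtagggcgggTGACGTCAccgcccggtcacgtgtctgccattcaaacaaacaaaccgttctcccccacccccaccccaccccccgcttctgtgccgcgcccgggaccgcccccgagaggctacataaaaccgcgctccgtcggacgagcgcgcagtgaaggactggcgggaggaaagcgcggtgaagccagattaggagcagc
Windows were found for 8 of the 10 members. On either strand, the core TGACG, which the complete element TGACGTCA contains, was in a window of 6 of these 8 genes and in 20.8% of all 32851 windows of this length. TGACGTCA was found for 1 of the 8 (1.79% of all windows), a CArG box for 1 of the 8 (1.63%), the EGR site GCGNGGGCG for 2 of the 8 (5.55%) and the AP-1 site TGANTCA for 0 of the 8 (7.81%). Egr2 has several overlapping windows and so more chances of a match than the other members. These are matches of letters within a short window and say nothing of what lies outside it.

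The targeted gene was lower in every d/d library. Nat10, an RNA cytidine acetyltransferase, was at 13.2, 16.4 and 9.95 FPKM in f/f replicates 1, 2 and 3 and at 5.57, 5.23 and 5.53 in d/d replicates 1, 2 and 3 (exact permutation test, two-sided p = 0.1, the smallest that 3 libraries against 3 allow). Across the 12640 genes tested, limma with Benjamini-Hochberg adjustment called 0 genes at an adjusted p of 0.05 (0% of those tested), and 630 genes had an unadjusted p under 0.05 (4.98%). That share moved with single libraries: it was 2.78% without d/d replicate 1, 13.7% without d/d replicate 2, 11.1% without d/d replicate 3 and 29.5% with array quality weights. None of the immediate early genes was called. With array quality weights, limma called 316 of the 12640 genes and 0 of the 9 tested members, with Fos nearest (adjusted p 0.0503). So small a share of genes was called that 0 of 9 says nothing particular of the members.

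Fos was the member that differed most clearly between the groups. It encodes the AP-1 subunit c-FOS. Its level was 1.80, 3.43 and 3.50 FPKM in f/f replicates 1, 2 and 3 and 5.62, 6.01 and 5.86 FPKM in d/d replicates 1, 2 and 3. Every d/d library lay above every f/f library, and the lowest d/d value was 1.60 times the highest f/f value. The mean was 2.91 ± 0.966 FPKM (SD, n = 3) in f/f and 5.83 ± 0.198 (SD, n = 3) in d/d, 2.00 times as high. The log2 change, d/d minus f/f on the log2(FPKM + 1) scale used for all changes below, was 0.84 with a standard error of 0.20. Its unadjusted p in limma was 0.0036 and its adjusted p 0.922, so that Fos did not pass the threshold over all genes (range of the adjusted p over 16 settings, 0.0503 to 1). By exact permutation the two-sided p was 0.1, again the smallest possible. The 3 d/d values lay within a coefficient of variation of 3.39%, against 33.2% among the controls, where f/f replicate 1 was low. Without f/f replicate 1 the log2 change was 0.61. In a whole organ, a higher share of cells that express a gene and more RNA per cell cannot be told apart.

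The other AP-1 subunits did not follow Fos. Fosb, a close relative of Fos, was at 0.342, 0.510 and 0.414 FPKM in f/f and at 0.232, 0.823 and 0.367 FPKM in d/d replicates 1, 2 and 3. It stayed below 1 FPKM in all 6 libraries, did not pass the filter on low values and was not tested. The d/d libraries held both its highest and its lowest value. Jun, which encodes c-JUN and was the most abundant member, was at 76.1, 80.7 and 78.7 FPKM in f/f and at 68.6, 65.4 and 104 FPKM in d/d. Its d/d replicates 1 and 2 lay below every control and its d/d replicate 3 above every control, and the means were 78.5 ± 2.32 and 79.4 ± 21.5 FPKM (SD, n = 3 each; log2 change -0.02, SE 0.18). The annotation places an antisense transcript over 689 bases of Jun, and the strandedness of the counting is not given in the sources used here. Junb, an AP-1 subunit that can oppose JUN, was at 14.3, 12.7 and 10.9 FPKM in f/f and at 15.5, 9.94 and 21.4 FPKM in d/d. Its d/d values surrounded the control range (log2 change 0.23, SE 0.25). The annotated span of Junb shares 351 bases with that of Prdx2 on the opposite strand, a gene at up to 157 FPKM here. Its reads may be less certain, but whether exons of the 2 genes overlap was not checked.

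**Figure D1:**
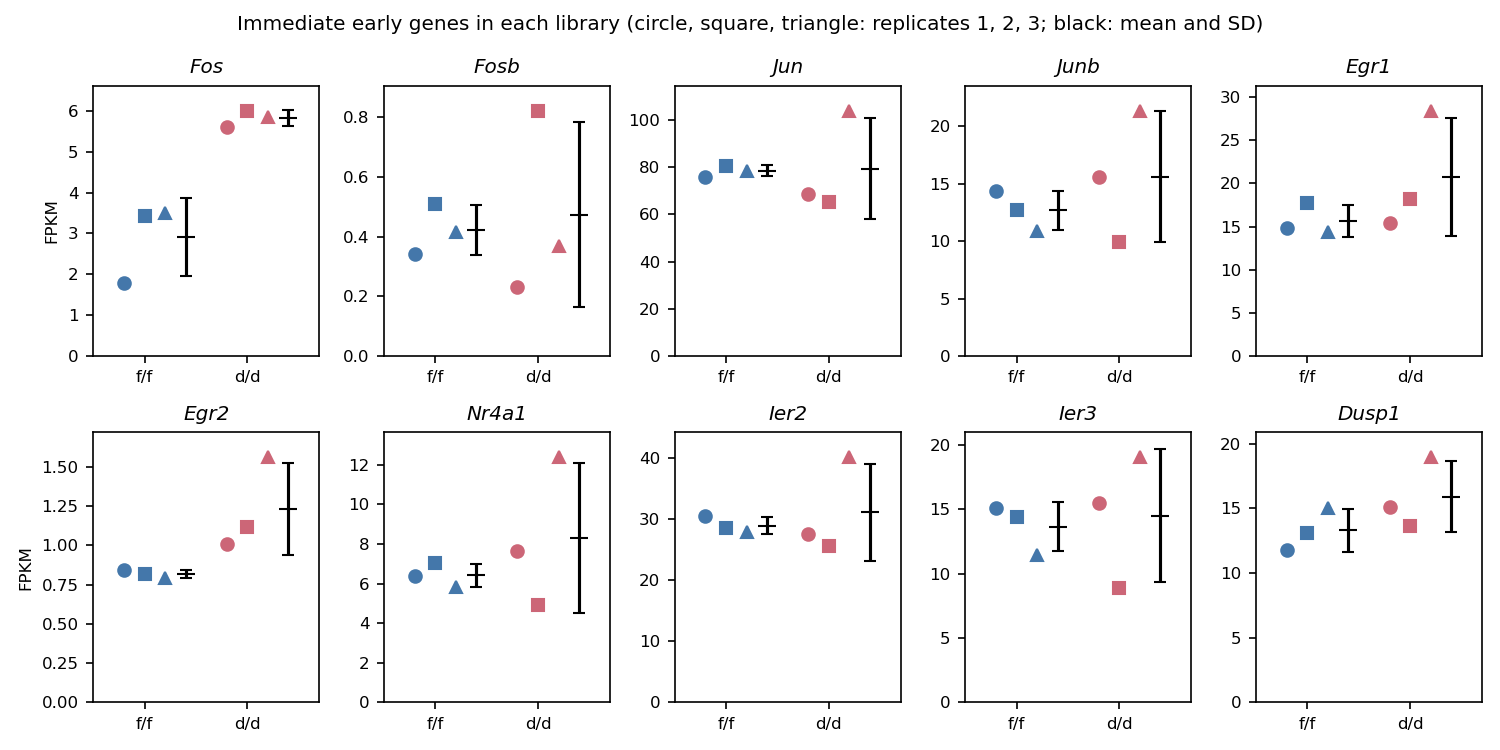
FPKM of the 10 immediate early genes in each library, on axes that start at 0, with f/f in blue, d/d in red, and the mean and SD of 3 libraries in black. Fos was between 5.62 and 6.01 in d/d and at most 3.50 in f/f, while d/d replicate 3 (triangle) was the highest library for 8 of the 10 genes.

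Of the zinc-finger genes, Egr2 separated the groups at a low level and Egr1 did not. Egr1, an early growth response factor induced by serum and oestrogen, was at 14.9, 17.7 and 14.3 FPKM in f/f and at 15.4, 18.2 and 28.4 FPKM in d/d. Its d/d replicate 1 lay inside the control range, replicate 2 just above it and replicate 3 far above it. The means were 15.6 ± 1.81 and 20.7 ± 6.85 FPKM (SD, n = 3 each), a log2 change of 0.34 (SE 0.22). Egr2, its paralog with a role in Schwann cell and hindbrain development, was at 0.841, 0.816 and 0.792 FPKM in f/f and at 1.01, 1.11 and 1.56 FPKM in d/d. All d/d libraries were above all controls, although the gap between d/d replicate 1 and f/f replicate 1 was small. The log2 change was 0.29 (SE 0.18) and the adjusted p in limma 0.922, and the change was 0.51 with a pseudocount of 0.1 in place of 1. Egr2 reached the filter of 1 FPKM in 3 libraries, all of them d/d, and so entered the test only through the group in which it was higher.

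Nr4a1, the orphan nuclear receptor NUR77, varied most between d/d libraries among the tested members. It was at 6.40, 7.02 and 5.82 FPKM in f/f and at 7.65, 4.91 and 12.4 FPKM in d/d. The controls stayed within 9.38% (coefficient of variation) while the d/d libraries spread over 45.5%, on both sides of the controls. The log2 change was 0.25 (SE 0.27), and it was -0.05 without d/d replicate 3 and 0.54 without d/d replicate 2.

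Ier2 and Ier3 encode short-lived early response proteins, IER2 a nuclear protein and IER3 a regulator of survival under stress. Ier2 was at 30.5, 28.4 and 27.8 FPKM in f/f and at 27.5, 25.6 and 40.1 FPKM in d/d. As for Jun, d/d replicates 1 and 2 were below and replicate 3 above every control (log2 change 0.07, SE 0.17). This arrangement held for 2 of the 10 members and for 4.97% of the genes tested. Ier3 was at 15.1, 14.4 and 11.5 FPKM in f/f and at 15.5, 8.88 and 19.1 FPKM in d/d. Its d/d replicate 2 was the lowest library and replicate 3 the highest (log2 change 0.03, SE 0.26).

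Dusp1, the phosphatase MKP-1 that inactivates MAP kinases, was at 11.8, 13.1 and 15.0 FPKM in f/f and at 15.1, 13.7 and 19.0 FPKM in d/d. Its d/d replicates 1 and 3 were above every control, replicate 1 by a small margin, and replicate 2 lay among the controls. The means were 13.3 ± 1.64 and 15.9 ± 2.74 FPKM (SD, n = 3 each), a log2 change of 0.24 (SE 0.15). The annotated span of Dusp1, introns included, overlaps Ergic1 (at up to 65.9 FPKM) by 640 bases on the opposite strand. It also overlaps the pseudogene Gm8225 (at up to 4.61 FPKM) by 956 bases on the opposite strand. A non-coding transcript overlaps it by 1853 bases on its own strand. Its reads may be less certain, but whether any exons of Dusp1 are covered was not checked. Adjusted p-values from limma for the 8 tested members other than Fos lay between 0.922 and 0.995.

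**Figure D2:**
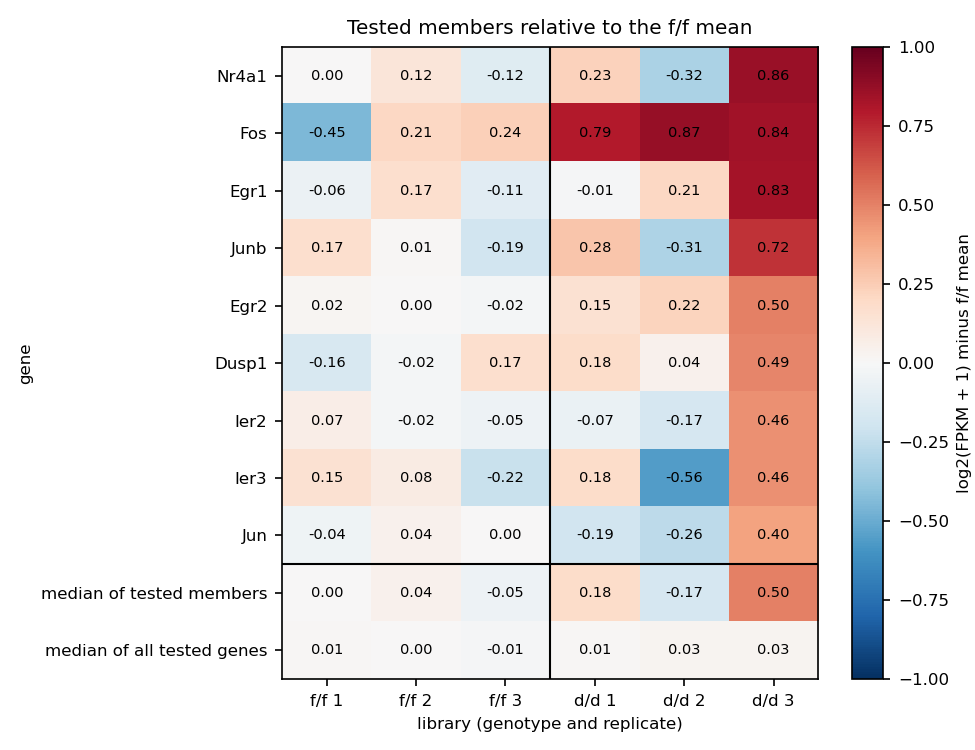
Difference of each library from the f/f mean on the log2(FPKM + 1) scale for the 9 tested members, ordered by d/d replicate 3, with the medians of the members and of all tested genes below the line. The median of the members is 0.18, -0.17 and 0.50 in d/d replicates 1, 2 and 3, and that of all tested genes is between 0.01 and 0.03 there.

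The pattern most members shared was a high value in d/d replicate 3. d/d replicate 3 was the highest library for 8 of the 10 members, where 22.1% of all tested genes were highest in it. The exceptions, Fos and Fosb, were highest in d/d replicate 2. In d/d replicate 3, 9 of the 10 members lay above every control (34.0% of tested genes did so), and the ratio to the f/f mean ran from 1.33 for Jun and 1.39 for Ier2 to 1.93 for Nr4a1 and 2.01 for Fos. Fosb was the exception at 0.870. In d/d replicate 2, 5 of the 10 members (Jun, Junb, Nr4a1, Ier2 and Ier3) had their lowest value of all 6 libraries (25.7% of tested genes were lowest there). In d/d replicate 1, 6 members were above every control (34.2% of tested genes) and 3 below (31.9%). Relative to the f/f mean, the tested members had a median of 0.00, 0.04 and -0.05 in f/f replicates 1, 2 and 3 and of 0.18, -0.17 and 0.50 in d/d replicates 1, 2 and 3 (log2 scale).

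The members varied less among controls than among d/d libraries. The coefficient of variation was larger among d/d than among f/f libraries for 9 of the 10 members, as it was for 73.9% of all tested genes. Fos was the exception. The median coefficient over the members was 12.0% in f/f and 30.1% in d/d, against 9.46% and 16.1% over all tested genes. Jun and Egr2 varied least among controls, at 2.96% and 3.05%, and reached 27.0% and 23.9% among d/d libraries.

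The order of the levels in controls was Jun (78.5 FPKM), Ier2 (28.9), Egr1 (15.6), Ier3 (13.7), Dusp1 (13.3), Junb (12.7), Nr4a1 (6.41), Fos (2.91), Egr2 (0.816) and Fosb (0.422). The control ranges of Egr1, Ier3, Dusp1 and Junb overlapped each other, so their order is not set beyond the spread. All other neighbours in this order were separated in the 3 controls. Jun was above 95.7% of all listed genes and Fos above 46.2%, so that these AP-1 partners stood far apart in mRNA level. Jun alone made up 39.8% to 46.6% of the summed FPKM of the 10 members in each library. That sum was 172, 179 and 169 FPKM in f/f and 172, 155 and 252 FPKM in d/d replicates 1, 2 and 3, with only d/d replicate 3 above the controls and d/d replicate 2 below them.

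Between the groups, 8 of the 9 tested members had a log2 change above 0 and 1, Jun, below 0. The mean FPKM of Jun was slightly higher in d/d all the same. Egr2 is among the 8, but the filter on low values fixed its direction, so it adds nothing to that count. Of all tested genes, 56.6% had a log2 change above 0. The median log2 change of the 9 was 0.24, and that of all tested genes 0.03. When every library had to reach 1 FPKM, which removes Egr2, the median of the remaining 8 was 0.23. An unadjusted p under 0.05 was reached by 1 member, Fos, against 4.98% of tested genes. Without d/d replicate 2 it was reached by 3 members, Fos, Nr4a1 and Junb (13.7% of tested genes), and without d/d replicate 1 by Fos and Egr1 (2.78%). Groups did not overlap for 2 of the 10 members, Fos and Egr2, both higher in d/d, and for 10.1% of the 16745 listed genes above 0 in any library. Because the filter on low values fixed this for Egr2, the count among tested genes leaves it out: Fos alone of 8 members, against 10.7% of the tested genes in either direction (6.12% higher in d/d). With so few members these counts are a description.

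Leaving out d/d replicate 3 took the median log2 change of the members from 0.24 to -0.02, with Jun at -0.23, Ier3 at -0.19, Ier2 at -0.12, Nr4a1 at -0.05 and Junb at -0.02. In the same fit Egr1 went from 0.34 to 0.10, Egr2 from 0.29 to 0.18 and Dusp1 from 0.24 to 0.11. Egr1 and Egr2 were at 0.10 and 0.18 with array quality weights as well. These weights were 3.74, 0.224 and 0.451 for d/d replicates 1, 2 and 3. That fit thus rests mostly on d/d replicate 1 within its group, and is no separate check on d/d replicate 3. Without d/d replicate 3, the groups did not overlap for 3 of the 8 tested members besides Egr2, Fos higher and Jun and Ier2 lower (30.2% of all tested genes, 15.6% higher and 14.6% lower). Leaving out d/d replicate 2, the library farthest from the others on the first principal component, gave a median of 0.33. In that fit 5 of the 8 besides Egr2 did not overlap, all higher in d/d: Fos, Junb, Nr4a1, Ier3 and Dusp1 (31.8% of all tested genes, 17.4% higher and 14.4% lower). Fos stayed between 0.61 and 0.96 whichever library was left out, and its unadjusted p was under 0.05 in all 16 settings.

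**Figure D3:**
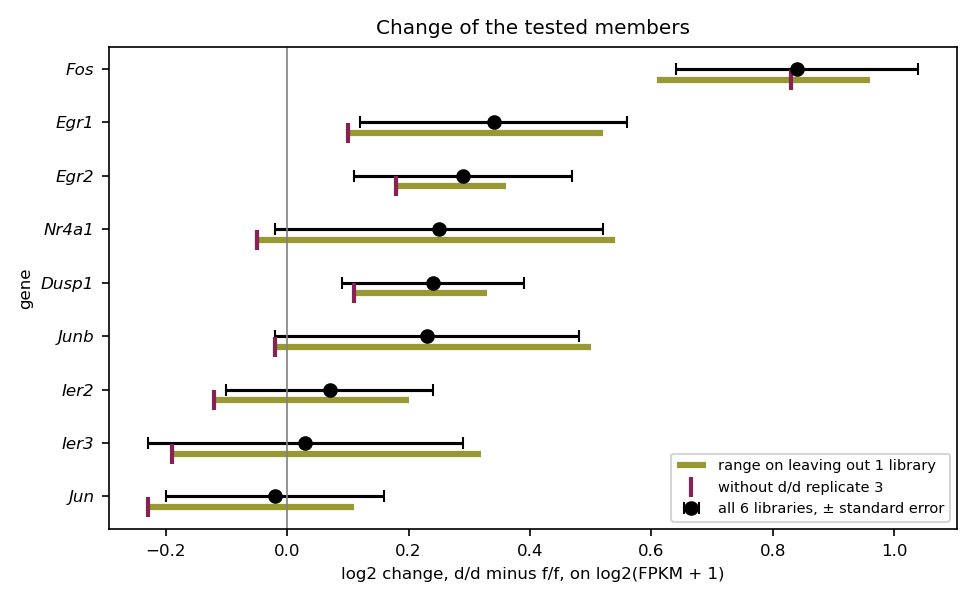
Log2 change of the 9 tested members, d/d minus f/f, on the log2(FPKM + 1) scale, with the standard error from limma, the range of values when 1 library was left out, and the value without d/d replicate 3. Fos stays between 0.61 and 0.96, whereas the range of 5 members, Jun, Junb, Nr4a1, Ier2 and Ier3, includes 0.

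In further immediate early genes d/d replicate 3 was again the highest library and replicate 2 the lowest by list median. Of 39 such genes, 37 were found by symbol and 33 were tested. Of these, 25 had a log2 change above 0 (56.6% of all tested genes did) and 8 below 0 (median 0.11). d/d replicate 3 was the highest library for 23 of the 33, where the share over all tested genes was 22.1%. The median relative to the f/f mean was 0.16, -0.18 and 0.41 in d/d replicates 1, 2 and 3, close to the 0.18, -0.17 and 0.50 of the members. None was called by limma, and 1 of the 33 had an unadjusted p under 0.05, against 4.98% of all tested genes. The same gene was the only 1 of the 33 without overlap, against 10.7% of all tested genes. This was Nfkbiz, an inducible inhibitor of NF-kB, at 5.26, 6.45 and 6.38 FPKM in f/f and at 9.97, 8.42 and 7.65 FPKM in d/d, without overlap (log2 change 0.46, SE 0.14, adjusted p 0.922). Plk2, a kinase gene induced by serum and by p53, followed with a log2 change of 0.27 (SE 0.12). Myc, the growth-promoting transcription factor, was at 59.7, 54.9 and 48.8 FPKM in f/f and at 44.3, 36.6 and 50.5 FPKM in d/d (log2 change -0.32, SE 0.15). For both, the groups overlapped.

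The close paralogs of the members were described after their values were seen. Fosl2, which encodes another FOS-family protein, was at 20.7, 22.1 and 21.8 FPKM in f/f and at 22.4, 18.0 and 35.3 FPKM in d/d, high in replicate 3 and low in replicate 2 as for Junb. Egr3 was at 1.31, 1.44 and 0.984 FPKM in f/f and at 2.17, 0.974 and 2.34 FPKM in d/d. Jund, which is expressed without a stimulus in many tissues, was at 104, 110 and 103 FPKM in f/f and at 91.9, 108 and 101 FPKM in d/d, with d/d replicate 3 below every control. Nr4a2 stayed between 2.23 and 2.77 FPKM in all 6 libraries. The 8 tested relatives of AP-1 (of 9 listed) split evenly, with 4 higher and 4 lower in d/d on average (median 0.02; directions here and below are those of the log2 change) and 0 at an unadjusted p under 0.05. Those with the smallest p were Atf7 (log2 change -0.13), Atf3 (0.28) and Fosl2 (0.17).

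Genes that act before the immediate early response lay near the f/f mean by list median in every d/d library, and feedback inhibitors, which act after it, did so in d/d replicates 1 and 3. Their difference from the members was not tested. The list of upstream kinases and factors (SRF and ELK factors, the RAF to ERK cascade, stress kinases and CREB-type factors) had 21 tested genes, with a median relative to the f/f mean of 0.03, 0.06 and -0.01 in d/d replicates 1, 2 and 3. None was called, and 2 of the 21 had an unadjusted p under 0.05, 1 in each direction (2.68% of all tested genes higher and 2.30% lower in d/d). Crem, a cAMP-responsive factor whose gene also yields an inducible repressor, was at 6.66, 8.14 and 7.63 FPKM in f/f and at 10.8, 9.54 and 9.63 FPKM in d/d (log2 change 0.38, SE 0.12). Mapk7, the kinase ERK5, was at 14.9, 16.4 and 16.4 FPKM in f/f and at 13.5, 13.3 and 13.3 FPKM in d/d (log2 change -0.23, SE 0.10). Groups did not overlap for either gene, as for 10.7% of all tested genes. Neither passed over all genes (limma adjusted p 0.922 for both). Mapk8, which encodes the JUN kinase JNK1, had a log2 change of 0.22 (SE 0.12). Among the 15 feedback inhibitors (other DUSP phosphatases, Sprouty and SPRED proteins, and the EGR corepressors Nab1 and Nab2), 7 were higher and 8 lower on average, with 0 at an unadjusted p under 0.05 and medians of -0.01, -0.14 and 0.05 in d/d replicates 1, 2 and 3. Dusp8 (log2 change 0.31) and Nab1 (0.14) were higher in d/d without overlap, 2 of the 15, against 6.12% of all tested genes. Spred2 (-0.27) overlapped.

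**Figure D4:**
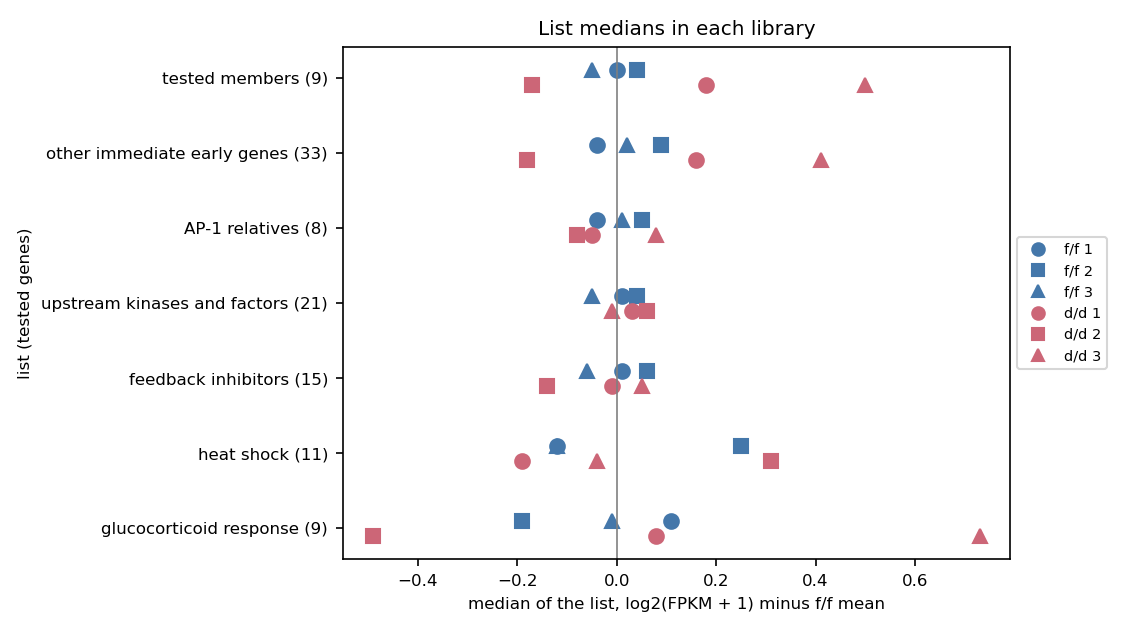
Median of each gene list in each library relative to the f/f mean on the log2(FPKM + 1) scale, with the number of tested genes in brackets. In d/d replicate 3 the members (0.50), the other immediate early genes (0.41) and the glucocorticoid response genes (0.73) stand high, and the upstream factors (-0.01) do not.

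Genes of related stress responses were read in the same libraries. Of the 9 glucocorticoid response genes, 8 were highest in d/d replicate 3, and their median relative to the f/f mean was 0.08, -0.49 and 0.73 in d/d replicates 1, 2 and 3. Fkbp5, an inducible cochaperone of the glucocorticoid receptor, was at 4.40, 2.25 and 1.58 FPKM in f/f and at 3.32, 6.12 and 9.88 FPKM in d/d. Zbtb16, another steroid-induced gene, was at 2.72, 1.51 and 1.99 FPKM in f/f and at 3.42, 1.16 and 10.5 FPKM in d/d. Sgk1, a kinase gene induced by serum and steroids, was lower in d/d without overlap, by a narrow margin, at 19.2, 22.7 and 23.0 FPKM in f/f and at 12.8, 13.7 and 19.1 FPKM in d/d. None of the 9 was called by limma (lowest adjusted p 0.922), and 2 had an unadjusted p under 0.05, Fkbp5 higher and Sgk1 lower in d/d (2.68% of all tested genes higher and 2.30% lower). The 11 heat shock genes had medians of -0.19, 0.31 and -0.04 in d/d replicates 1, 2 and 3, so that d/d replicate 3 was not high for them. The 3 with the smallest p, Hspa1a (log2 change -0.22), Dnaja1 (0.13) and Hsph1 (-0.38), overlapped between groups.

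Among the genes whose library profile lay closest to the median profile of the members were Znrf3, Lef1, Hdac9, Cldn34c1 and Usp20. Likeness was the mean absolute difference over the 6 libraries between centred log2(FPKM + 1) profiles, which was 0.024 for Znrf3 and 0.034 for Lef1, against 0.218 for the median tested gene. Lef1, a Wnt pathway transcription factor, was at 8.32, 8.40 and 7.61 FPKM in f/f and had centred values of 0.12, -0.24 and 0.41 in d/d replicates 1, 2 and 3. Of the members themselves Ier2 was closest to the median profile (0.071) and Fos farthest (0.311). The likeness rests on 6 libraries and largely on d/d replicate 3.

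Several properties of the libraries varied beside these values, and their part in the results was not tested. Relative depth, from the size of the lowest values, was 1, 0.814 and 0.871 in f/f and 0.806, 1.02 and 0.836 in d/d. Summed over 10 proliferation genes, levels were 80.0, 20.1 and 50.5 FPKM in f/f and 18.7, 193 and 9.83 FPKM in d/d replicates 1, 2 and 3, so that d/d replicate 2 was the highest library and d/d replicate 3 the lowest, the reverse of 5 of the 10 members. All 9 tested proliferation genes were highest in d/d replicate 2, among them Ccna2, Ccnb1 and Top2a (log2 changes of -0.35, -0.35 and -0.34). The 5 blood markers (globins and Alas2) summed to 5581, 2629 and 851 FPKM in f/f and to 709, 1723 and 1111 FPKM in d/d, with 5 of 5 lower on average in d/d. Markers of the labelled tissue were present. Epithelial markers summed to 584 to 680 FPKM in f/f and 651 to 751 in d/d, with 5 of 6 higher on average in d/d. Stromal markers summed to 3172 to 3613 and 2557 to 3507, with 6 of 6 lower, and endothelial markers to 238 to 268 and 206 to 227, with 6 of 6 lower. Smooth muscle markers summed to 3788 to 4343 and 3577 to 4450. Leukocyte markers summed to 73.4 to 103 in f/f and 69.5 to 95.7 in d/d, with 4 of 5 tested lower. Mesothelial markers summed to 56.8 to 71.1 and 55.7 to 66.1, with 3 of 4 lower on average in d/d. Of these markers of uterine cell types, Kdr (endothelium, log2 change -0.47), Lrrn4 (mesothelium, -0.70) and Msln (mesothelium, -0.51) were lower and Cldn7 (epithelium, 0.49) higher in d/d without overlap and at an unadjusted p under 0.05, which 4.98% of all tested genes reached. None was called by limma (lowest adjusted p 0.806).

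Markers of neighbouring tissues were present in part. Oviduct markers, of which Pax8 and Sox17 are also expressed in the uterus, summed to 104, 103 and 110 FPKM in f/f and to 96.8, 73.4 and 133 FPKM in d/d replicates 1, 2 and 3, lowest in d/d replicate 2 and highest in d/d replicate 3 as for 5 of the 10 members. Sox17, which gave most of that sum, was at 79.7, 63.5 and 110 FPKM and Pax8 at 14.7, 8.82 and 19.3 FPKM in these d/d libraries. Ovgp1, the oviduct glycoprotein gene, was at 6.42, 5.58 and 1.73 FPKM in f/f and at 2.38, 0.817 and 4.01 FPKM in d/d, with d/d replicate 3 inside the control range. Skeletal muscle markers summed to 42.3 to 60.1 in f/f and 41.9 to 51.3 in d/d, mostly Acta1, with Myh4 listed at 0 in all 6 libraries. Ovary markers summed to 37.9 to 38.7 and 25.9 to 37.0, mostly Foxl2 (log2 change -0.37, lower without overlap, unadjusted p in limma 0.0202), with Gdf9 between 0.395 and 1.58 FPKM and Zp3 listed at 0 in all 6. Fat markers summed to 1.27 to 34.0 and 0.146 to 10.9. Whether these markers came from such tissues or from the uterus itself was not tested, nor was their part in the results.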

How the data were processed

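Poly(A) RNA of whole uteri was sequenced in 3 f/f and 3 d/d libraries, grouped and numbered by the sample titles. TRIzol extraction and a TruSeq RNA kit were used, per the labels' protocols. The submitters' processing notes list HISAT2 2.2.1, Cufflinks 2.2.1 and build mm10. The deposited values are taken as FPKM computed by the authors: Cufflinks reports this unit, the values are not whole numbers and sum to between 500764 and 549263 per library, and no file header names a unit. The annotation, gene filter and strandedness are not given in the sources used here. Absolute depth is therefore unknown, and no counting intervals are given. Relative depth was the most frequent ratio of values under 0.05 FPKM to those of f/f replicate 1 (window of 0.01, natural log).

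Values were joined in Python 3.11.15 (pandas 2.3.3) and analysed as log2(FPKM + 1) in limma 3.58.1 (R 4.3.3; lmFit, eBayes with trend; group as the only term), which understates changes of low genes. Genes of at least 1 FPKM in at least 3 libraries were tested (12640), and p-values were two-sided and adjusted by Benjamini-Hochberg over all of them at a threshold of 0.05. In 5 simulations with 200 of 12640 genes changed by 1.5 (log2), 100% of changed genes were called and 5.27% of calls were false. The simulated noise was normal, with the median spread of the data for every gene and library. Real spread differed between genes and groups, so these rates check the code and do not carry over to the data. In the data Nat10, at a log2 change of -1.11, was not called (limma adjusted p 0.669). No libraries held identical values. Of the listed identifiers 20572 matched GENCODE M21 (GRCm38), which gave overlaps between genes. Promoters are from RefSeq, build GRCm38.p6.

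The members and gene lists were chosen with earlier results of these data known. The genes named were Nat10, all members, the 3 tested genes with the smallest p of each list, and the 6 genes most like the median member profile. Not every gene this rule gives is reported here. Egr3, Jund, Nr4a2, Fosl1, Myh4, Zp3 and the genes that overlap members fall outside it and were chosen after their values were seen. The replicate number was not used as a pairing, and its check stands with the alternatives: scaling, filter, pseudocount, trend, array quality weights, replicate block and leaving out each library.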

Additional observations from a re-analysis of the deposited data

How the results depend on the processing

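The number of genes called was 0 under 7 settings fixed for scaling, filter, pseudocount and trend, and with the replicate block. It was 316 with array quality weights and 0 to 12 when 1 library was left out, the 12 without d/d replicate 2; genes at an unadjusted p under 0.05 then numbered 352 to 1726, and 3730 with array quality weights. The median log2 change of the members was -0.02 to 0.33 when 1 library was left out, negative only without d/d replicate 3. The members without overlap numbered 1 when each library had to reach 1 FPKM, because this filter removes Egr2, and 2 to 6, Egr2 among them, when 1 library was left out. The log2 change of 5 members changed sign under some setting. On leaving out 1 library, Jun ranged from -0.23 to 0.11, Junb from -0.02 to 0.50, Nr4a1 from -0.05 to 0.54, Ier2 from -0.12 to 0.20 and Ier3 from -0.19 to 0.32. With array quality weights Ier2 was -0.03, and with upper-quartile scaling Ier3 was -0.01. The cause of these shifts was not tested. With a pseudocount of 0.1 in place of 1, Fos was 1.04 and Egr2 0.51.

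Same-numbered f/f and d/d libraries did not deviate together (correlations over genes of -0.341, -0.029 and 0.1 for replicates 1, 2 and 3), so the numbers were not taken as pairs. The fit with the replicate block called 0 genes, with 726 at an unadjusted p under 0.05, and left the median of the members at 0.24. Unknown absolute depth limits the low members, Fosb and Egr2, most.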

Other observations

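The balance of AP-1 partners is given here as values only, chosen after they were seen. The ratio of Jun to Fos in FPKM was 42.3, 23.5 and 22.4 in f/f replicates 1, 2 and 3 and 12.2, 10.9 and 17.8 in d/d replicates 1, 2 and 3. All d/d ratios lay below all f/f ratios, in d/d replicates 1 and 2 with lower Jun as well as higher Fos. Summed over Fos, Fosb, Fosl1 and Fosl2, the FOS family was at 22.8, 26.0 and 25.7 FPKM in f/f and at 28.2, 24.9 and 41.6 FPKM in d/d. Fosl2 made up most of each sum, and the groups overlapped. The JUN family (Jun, Junb and Jund) was at 194, 204 and 192 FPKM in f/f and at 176, 184 and 226 FPKM in d/d.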
